A study of Homo sapiens with 15 samples.

Results

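The genes of the integrated stress response and of the unfolded protein response were followed in SCC13 cells, a cell line from a squamous cell carcinoma of human skin. The set was 38 genes chosen by symbol: 4 sensors, 7 transcription factors, 17 targets of the transcription factor ATF4, and 10 chaperones and degradation factors of the endoplasmic reticulum (ER). On the arrays, 44 of 50599 probes carried an accession of one of them, and 20503 genes had a named probe in all. Of the 38 genes, 36 had a probe bright enough to be tested.

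Gene expression was read on 15 Agilent 1-colour arrays. SCC13-TLR4 cells were stably transfected with pUNO-TLR4GFP, selected with blasticidine and sorted for a high GFP signal, and SCC13-pUNO cells carried the control plasmid. Untreated cells gave 4 arrays of SCC13-pUNO and 3 of SCC13-TLR4, and cells kept for 24 h with 10 µg/ml LPS, the bacterial ligand of TLR4, gave 4 arrays of each line. All groups therefore share the SCC13 background, stable transfection and selection. Replicates were separate cultures of 1 transfected population per line, which leaves the difference between transfections uncovered. The p-values measure only the spread between cultures and between the arrays that read them. The comparisons ask whether TLR4 on its own, or together with its ligand, goes with a stress response.

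Levels are given as log2 intensity minus the 75th percentile of the array, so a value of 0 is the intensity below which 75% of the spots of that array lie. A difference of 1 on this scale is a doubling of intensity. The 75th percentile itself lay between 192 and 420 intensity units, and 47.1% to 56.2% of the spots were well above background. The arrays sat on 2 slides, which took 36.9% of the variance of all probes and 33.4% of that of the stress genes, so every difference below is from a limma fit with a mean per group and slide as a factor. Of the untreated arrays, 3 of 4 of SCC13-pUNO but 1 of 3 of SCC13-TLR4 lay on slide 1, and for this reason a fitted difference can depart from the plain difference of group means.

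TLR4 itself was between 2.84 and 3.19 on the 7 SCC13-TLR4 arrays and between -6.40 and -3.80 on 7 of the 8 SCC13-pUNO arrays. The remaining one, the array labelled SCC13-pUNO untreated 2, had TLR4 at 3.04, which goes against its label and falls among the SCC13-TLR4 values. It lay in row 2 of column 1 on slide 1. Column 1 otherwise held untreated SCC13-TLR4 arrays, and the other 3 untreated SCC13-pUNO arrays lay in column 3. No array labelled SCC13-TLR4 had TLR4 at the level of the other SCC13-pUNO arrays. How the label of this array came about was not tested. The array stays in its labelled group here, and the main differences are also given without it. Of 8 keratinocyte markers, 7 were well above background on all 15 arrays, KRT6A being the exception. Of 6 fibroblast markers 5 were well above background on no array, whereas CD14, CD79A and PTPRC among the immune markers, PMEL among the melanocyte markers and CDH5 among the endothelial markers had a probe well above background on every array.

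In the integrated stress response, the kinases EIF2AK3 (PERK, which senses unfolded protein in the ER) and EIF2AK4 (GCN2, which senses uncharged tRNA) phosphorylate the initiation factor eIF2, general translation slows, and the mRNA of ATF4 is translated more. ATF4 then drives genes of amino acid synthesis and transport, of redox balance, and of its own feedback. In the ER, ERN1 (IRE1) splices the mRNA of XBP1, and ATF6 is cleaved to a transcription factor. Both turn on chaperones and the machinery of ER-associated degradation. Splicing, cleavage and phosphorylation are not read by these probes, which measure the amount of mRNA.

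The DNA elements of the 2 arms are shown because they were found from sequence alone, independently of the intensities. Promoters of 34 of the 38 genes were found in the RefSeq table (GRCh38.p14, 250 bases before to 50 after the start of the gene), and those of ALDH1L2, NUPR1, SHMT2 and SLC7A11 were not. The C/EBP-ATF response element was searched on both strands as TGATGNAA and was in 3.67% of all 27305 promoters and in those of 4 of the 34 genes: ASNS, CHAC1, HERPUD1 and SLC3A2. In SLC3A2 the match lies after the start and is not printed. The ER stress response element, CCAAT and CCACG with 9 bases of any kind between them, on both strands, was in 0.0806% of all promoters and also in those of 4 of the 34 genes: HSPA5, HSP90B1, CALR and XBP1. The unfolded protein response element TGACGTGG, in 0.795% of all promoters, was in 0 of the 34. The stretches are read 5′ to 3′ along the strand of the gene, with the match in capitals, and a match on the other strand appears as its reverse complement.
ASNS, chr7:97872449-97872496, minus strand: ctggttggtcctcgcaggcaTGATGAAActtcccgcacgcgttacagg
CHAC1, chr15:40953242-40953289, plus strand: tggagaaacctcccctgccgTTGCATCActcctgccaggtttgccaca
HERPUD1, chr16:56931946-56931993, plus strand: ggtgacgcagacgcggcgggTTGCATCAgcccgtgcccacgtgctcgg
HSPA5, chr9:125241371-125241429, minus strand: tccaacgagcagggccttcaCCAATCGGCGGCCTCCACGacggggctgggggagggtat
HSP90B1, chr12:103930196-103930254, plus strand: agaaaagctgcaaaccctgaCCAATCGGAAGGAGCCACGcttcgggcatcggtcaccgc
CALR, chr19:12938364-12938422, plus strand: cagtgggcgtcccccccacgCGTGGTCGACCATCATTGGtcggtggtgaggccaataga
XBP1, chr22:28800583-28800641, minus strand: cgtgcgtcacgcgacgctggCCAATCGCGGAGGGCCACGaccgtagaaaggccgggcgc
CHAC1 and HERPUD1 carry the same 8 letters. HSP90B1 has a further ER stress match closer to its start.

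No stress gene passed the test between the 2 lines, or between LPS-treated and untreated cells, at an adjusted p under 0.05 (limma, Benjamini-Hochberg over 22682 probes). Among all probes the comparison of lines pooled over LPS called 22 (0.097%), and every other comparison of lines, of LPS and of their interaction called 0%. Before adjustment, 8 of 36 stress genes had p under 0.05 in the pooled line comparison (all higher in SCC13-TLR4), against 10.5% of all probes (5.35% higher and 5.2% lower). In untreated cells 7 of 36 did (all higher), against 5.55% of all probes (2.98% higher and 2.57% lower), and with LPS 0 of 36, against 6.43%. Without the array labelled SCC13-pUNO untreated 2, 7 of 36 had p under 0.05 in untreated cells and 7 in the pooled comparison, against 5.74% and 11.2% of all probes, and again none was called. With no slide factor 0 of 36 had p under 0.05 in either, and without untreated SCC13-TLR4 replicate 2 it was 2 of 36 in untreated cells. The share of all probes under these fits is not given, so whether the stress genes fell more than all probes cannot be read from these counts. In these cultures a shift in the cells present and a shift in RNA per cell cannot be told apart. The keratinocyte marker KRT14 was among the 22 called probes (1.42, limma adjusted p = 0.0359), while another KRT14 probe (A_33_P3345534) had closer group means. In SCC13-pUNO and SCC13-TLR4 cells these were 2.86 and 3.24 untreated, and 2.60 and 3.30 with LPS. Other keratinocyte markers went both ways, with untreated means of 8.66 and 8.52 for SFN, and of 3.57 and 3.67 for KRT17. The part of these markers in the values of the stress genes was not tested. The smallest adjusted p of a stress gene was 0.41, for NUPR1 in the pooled line comparison.

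The sensors are the entry to both pathways. EIF2AK3 was not well above background on any array, and no difference is given for it. ERN1 was well above background on 11 of 15 arrays (all 7 of SCC13-TLR4 and 4 of 8 of SCC13-pUNO) and ranged from -5.01 to -3.24, with its lowest values on untreated SCC13-pUNO replicates 1 and 2. It entered the test through the SCC13-TLR4 arrays, so no line difference is read from it. Untreated SCC13-pUNO arrays were at -4.94, -5.01, -3.54 and -3.90 and LPS-treated ones at -3.46, -3.73, -4.53 and -4.24, and SCC13-TLR4 arrays were at -3.98, -3.70 and -3.24 untreated and at -3.76, -3.67, -3.35 and -4.05 with LPS. EIF2AK4 and ATF6 were well above background on every array, and their pooled line differences were -0.05 (95% interval -0.18 to 0.09) and -0.04 (-0.17 to 0.10), or -0.04 and -0.02 without the array labelled SCC13-pUNO untreated 2.

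ATF4, the effector of the integrated stress response, was at 8.20, 8.16, 8.05 and 7.97 on untreated SCC13-pUNO replicates 1 to 4, and at 8.33, 8.24 and 7.92 on untreated SCC13-TLR4 replicates 1 to 3. In LPS-treated cells it was at 8.28, 8.07, 7.93 and 8.01 in SCC13-pUNO and at 8.07, 8.29, 8.04 and 7.61 in SCC13-TLR4 cells. The groups overlapped throughout, and the lowest value was on LPS-treated SCC13-TLR4 replicate 4. The line difference was 0.18 in untreated cells (95% interval -0.08 to 0.44), -0.07 with LPS (-0.30 to 0.16) and 0.05 pooled (-0.12 to 0.23). Without the array labelled SCC13-pUNO untreated 2 the pooled value was 0.05 as well.

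DDIT3 (CHOP), a transcription factor induced under prolonged ER stress, was at -0.50, -1.08, -1.17 and -1.28 in untreated SCC13-pUNO cells and at -0.53, -1.03 and -0.90 in untreated SCC13-TLR4 cells. With LPS the values were -0.58, -1.05, -1.37 and -1.21 in SCC13-pUNO and -0.51, -1.01, -0.98 and -0.83 in SCC13-TLR4 cells. Replicate 1 was the highest array of every group. Pooled over LPS, the line difference was 0.27 (95% interval 0.01 to 0.54, limma adjusted p = 0.464), with 0.22 on slide 1 and 0.35 on slide 2, and it was 0.25 (-0.03 to 0.53) without the array labelled SCC13-pUNO untreated 2. On slide 1 the arrays of replicate 1 formed a row of their own. Within that row SCC13-TLR4 minus SCC13-pUNO was -0.03 untreated and 0.07 with LPS, and in the other row 0.04 with LPS. Within the rows of slide 2 it was 0.25 untreated, and 0.39 and 0.38 with LPS. With slide and row together as the factor, chosen after the data had been seen, the pooled difference was 0.18 (95% interval 0.04 to 0.32, limma adjusted p = 0.35).

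NUPR1, a small stress-induced chromatin protein that ATF4 can activate, had the largest t of the set in the pooled line comparison. It was at -1.28, -1.17, -1.32 and -1.57 in untreated SCC13-pUNO cells and at -0.84, -0.84 and -1.43 in untreated SCC13-TLR4 cells. After 24 h of LPS it was at -1.01, -1.22, -1.44 and -1.54 in SCC13-pUNO and at -0.93, -1.14, -1.14 and -1.40 in SCC13-TLR4 cells. In untreated cells 2 of the 3 SCC13-TLR4 arrays lay above all SCC13-pUNO arrays and the remaining one below all but 1 of them. The pooled difference was 0.28 (SE 0.09, limma adjusted p = 0.41), with 0.24 on slide 1 and 0.33 on slide 2. In a two-sided exact permutation test of the line labels within slide and LPS (432 splits, smallest possible p 0.00231), p was 0.00926. NUPR1, PCK2, PHGDH and SEL1L were picked for the largest t in this comparison and ALDH1L2, SLC7A5, DNAJB9 and PDIA4 for that in the pooled LPS comparison, so their permutation p are not corrected for the choice and stand as descriptions only. Without the array labelled SCC13-pUNO untreated 2 the difference was 0.30 (exact permutation test, p = 0.0154).

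XBP1, the target of ERN1, was at 4.77, 4.88, 4.76 and 4.47 in untreated SCC13-pUNO and at 4.93, 4.69 and 4.57 in untreated SCC13-TLR4 cells. In the presence of LPS it was at 4.66, 4.71, 4.56 and 4.53 in SCC13-pUNO and at 4.90, 4.79, 4.57 and 4.52 in SCC13-TLR4 cells. On slide 1 the SCC13-TLR4 arrays lay above those of SCC13-pUNO, except for the array labelled SCC13-pUNO untreated 2, which lay above the lower LPS-treated array. The pooled line difference was 0.10 (95% interval -0.01 to 0.21), with 0.15 and 0.08 within the slides, and 0.11 (0.01 to 0.22) without that array. ATF5, a relative of ATF4, and CEBPB and CEBPG, its dimer partners, had pooled line differences between -0.06 and 0.04 (between -0.05 and 0.03 without that array). CEBPG had the narrowest range of the 36 genes, from 2.46 to 2.70 over all 15 arrays.

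**Figure D1:**
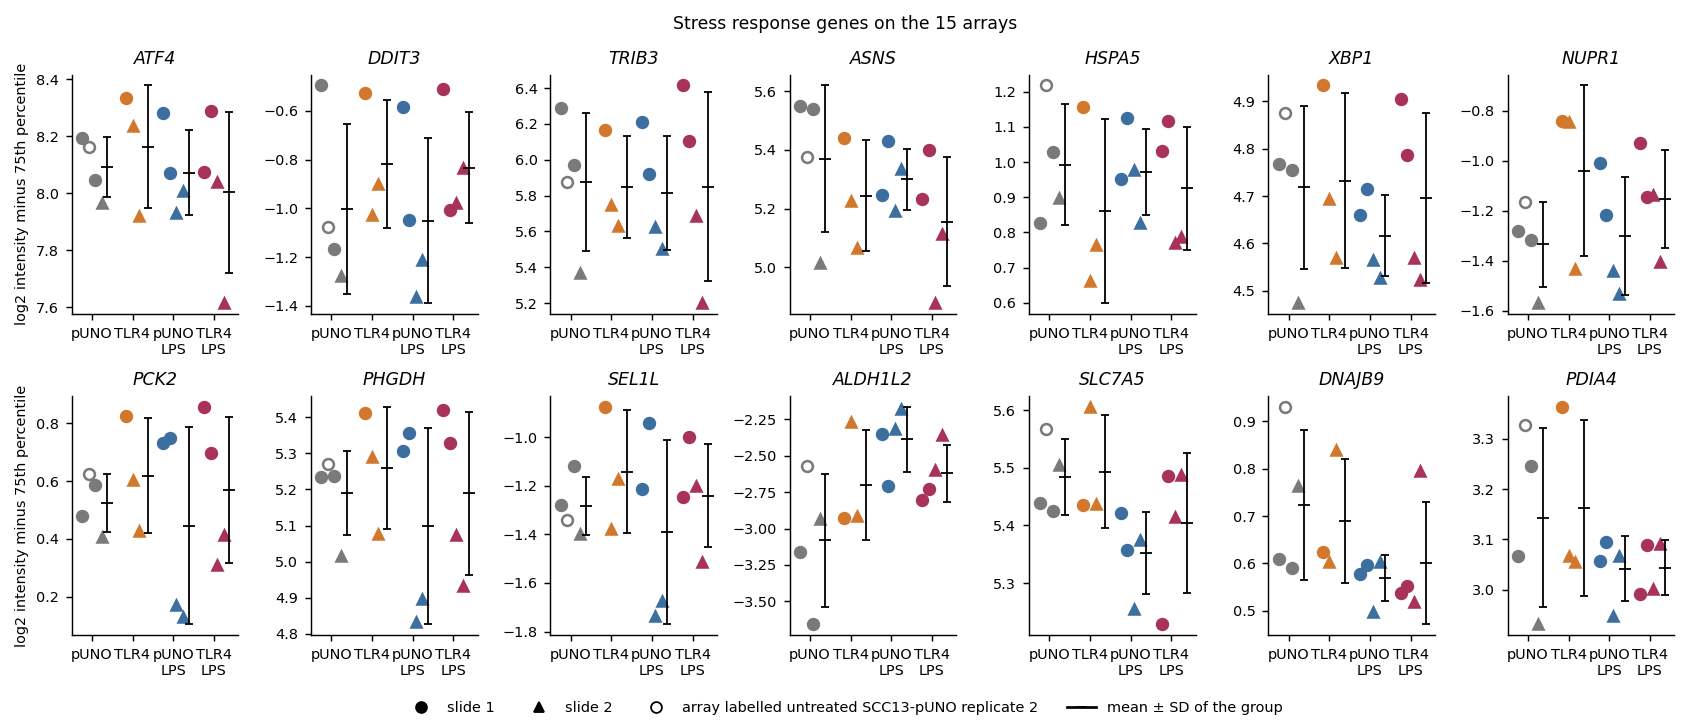
Log2 intensity minus the 75th percentile of the array (y axis) of the 14 genes described array by array, in untreated and LPS-treated SCC13-pUNO and SCC13-TLR4 cells; circles are arrays of slide 1, triangles arrays of slide 2, the open circle is the array labelled SCC13-pUNO untreated 2, and bars are mean ± SD of the group. For TRIB3 all slide 2 arrays lie below all slide 1 arrays, and the lines overlap within each treatment in every panel.

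Of the 16 ATF4 targets tested, 12 were higher in untreated SCC13-TLR4 cells and 4 lower, against 57.9% of all probes higher, and their median difference was 0.18, against 0.03 over all probes. Before adjustment 5 of the 16 had p under 0.05, all higher: PHGDH, PCK2, DDIT4, CHAC1 and SESN2. Over all probes the share was 5.55%, and 2.98% for higher ones. With LPS, 9 of the 16 were higher and 7 lower with a median of 0.02, against -0.01 over all probes, of which 47.7% were higher. The median in untreated cells was 0.17 without the array labelled SCC13-pUNO untreated 2, 0.07 with no slide factor and 0.08 without untreated SCC13-TLR4 replicate 2.
The 10 ER chaperones and degradation factors were split evenly in untreated cells, 5 higher and 5 lower, with a median of -0.01, and with LPS again 5 and 5, with a median of -0.02. Of the 10, SEL1L alone had an unadjusted p under 0.05 in untreated cells, and none did with LPS or, in untreated cells, without the array labelled SCC13-pUNO untreated 2.

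The amino acid synthesis genes among the ATF4 targets had line differences of both signs. ASNS, asparagine synthetase, whose element is shown above, was at 5.55, 5.38, 5.54 and 5.02 in untreated SCC13-pUNO and at 5.44, 5.23 and 5.07 in untreated SCC13-TLR4 cells. In LPS-treated cells it was at 5.25, 5.43, 5.19 and 5.34 in SCC13-pUNO and at 5.23, 5.40, 4.88 and 5.11 in SCC13-TLR4 cells. The groups overlapped, and the pooled line difference was -0.08 (95% interval -0.24 to 0.08), or -0.09 without the array labelled SCC13-pUNO untreated 2.

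PHGDH, the first enzyme of serine synthesis, was at 5.23, 5.27, 5.24 and 5.02 in untreated SCC13-pUNO and at 5.41, 5.29 and 5.08 in untreated SCC13-TLR4 cells. After 24 h of LPS it was at 5.31, 5.36, 4.83 and 4.90 in SCC13-pUNO and at 5.42, 5.33, 5.07 and 4.93 in SCC13-TLR4 cells. With the treatments mixed, the lines overlapped on both slides. Within a treatment they overlapped on slide 1 with LPS, and elsewhere the SCC13-TLR4 arrays lay above those of SCC13-pUNO. Untreated cells had 1 SCC13-TLR4 array on slide 1 and 1 SCC13-pUNO array on slide 2. Pooled over LPS, the line difference was 0.15 (SE 0.06, limma adjusted p = 0.434, exact permutation test p = 0.00463), with 0.10 on slide 1 and 0.15 on slide 2, and was 0.15 without the array labelled SCC13-pUNO untreated 2 (exact permutation test, p = 0.00617).

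PCK2, the mitochondrial phosphoenolpyruvate carboxykinase, was at 0.48, 0.63, 0.59 and 0.41 in untreated SCC13-pUNO and at 0.83, 0.60 and 0.43 in untreated SCC13-TLR4 cells. In the presence of LPS it was at 0.73, 0.75, 0.17 and 0.13 in SCC13-pUNO and at 0.86, 0.70, 0.31 and 0.41 in SCC13-TLR4 cells. The pooled line difference was 0.19 (SE 0.07, limma adjusted p = 0.426, exact permutation test p = 0.0116), with 0.15 and 0.16 within the slides and 0.19 without the array labelled SCC13-pUNO untreated 2 (exact permutation test, p = 0.0154). The dimmer PCK2 probe (A_33_P3268532), well above background on 14 arrays, was at -0.24 (95% interval -0.74 to 0.27), or -0.12 without that array, and the mean of both probes was at -0.02.
The remaining enzymes of this kind were PSAT1 of serine synthesis, SHMT2, MTHFD2 and ALDH1L2 of mitochondrial one-carbon metabolism. Their pooled line differences lay between -0.06 and 0.02, each with an interval that holds 0.

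TRIB3, a pseudokinase induced by ATF4 and DDIT3 that feeds back on ATF4, was at 6.29, 5.88, 5.97 and 5.37 in untreated SCC13-pUNO and at 6.17, 5.75 and 5.63 in untreated SCC13-TLR4 cells. In LPS-treated cells it was at 6.21, 5.92, 5.63 and 5.50 in SCC13-pUNO and at 6.42, 6.10, 5.68 and 5.20 in SCC13-TLR4 cells. The groups overlapped and the slides did not, with slide 1 between 5.88 and 6.42 and slide 2 between 5.20 and 5.75. Pooled over LPS, the line difference was 0.14 (95% interval -0.09 to 0.36), with 0.16 and 0.10 within the slides, and 0.11 without the array labelled SCC13-pUNO untreated 2.
CHAC1, which degrades glutathione, had the largest line difference among the ATF4 targets, 0.36 pooled over LPS (95% interval 0.04 to 0.68) and 0.53 in untreated cells (0.05 to 1.01). Its other probe gave 0.46 and 0.68. Untreated SCC13-TLR4 replicate 2 was its highest array at 2.45 and untreated SCC13-pUNO replicate 4, on the same slide, its lowest at 1.05. Without the array labelled SCC13-pUNO untreated 2 the values were 0.40 pooled and 0.62 in untreated cells. SESN2 and DDIT4 (REDD1), which both restrain mTORC1, were at 0.17 (0.01 to 0.33) and 0.19 (0.01 to 0.37) pooled, and at 0.19 and 0.20 without that array.
SLC7A11, SLC3A2 and SLC7A5, the subunits of the cystine and leucine exchangers, PPP1R15A (GADD34), which returns eIF2 to its unphosphorylated form, and the secreted stress cytokine GDF15 had pooled line differences between -0.01 and 0.10. GDF15 spread over 1.16 log2 units between arrays, and its interval was -0.33 to 0.52. STC2, a secreted glycoprotein, was well above background on 1 of 15 arrays, and no difference is given.

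HSPA5 (BiP), the main chaperone of the ER lumen, was at 0.83, 1.22, 1.03 and 0.90 in untreated SCC13-pUNO and at 1.16, 0.66 and 0.76 in untreated SCC13-TLR4 cells. After 24 h of LPS it was at 0.95, 1.13, 0.98 and 0.83 in SCC13-pUNO and at 1.03, 1.12, 0.77 and 0.79 in SCC13-TLR4 cells. The groups overlapped, and the highest value was on the array labelled SCC13-pUNO untreated 2. The pooled line difference was -0.04 (95% interval -0.19 to 0.12), or -0.01 without that array, and it differed in sign between slide 1 (0.08) and slide 2 (-0.15).
The other 3 genes with an ER stress response element in the promoter gave pooled line differences of -0.05 for HSP90B1 (GRP94), -0.09 for CALR (calreticulin) and 0.10 for XBP1, all with intervals that hold 0. HSP90B1 was at -0.07 and CALR at -0.09 without the array labelled SCC13-pUNO untreated 2. CALR rests on 14 arrays, since 1 spot was marked as an outlier. DNAJB9 and SDF2L1, partners of HSPA5, the disulfide isomerases PDIA4 and PDIA6, and HERPUD1 and EDEM1 of ER-associated degradation lay between -0.08 and 0.11.
SEL1L, the adaptor of the HRD1 ubiquitin ligase, was at -1.28, -1.34, -1.12 and -1.40 in untreated SCC13-pUNO and at -0.87, -1.38 and -1.17 in untreated SCC13-TLR4 cells. In the presence of LPS it was at -1.21, -0.94, -1.74 and -1.67 in SCC13-pUNO and at -1.25, -0.998, -1.20 and -1.51 in SCC13-TLR4 cells, so that the groups overlapped on slide 1 and separated by line on slide 2 in LPS-treated cells. Pooled over LPS, the line difference was 0.22 (SE 0.09, limma adjusted p = 0.444, exact permutation test p = 0.0347), with 0.16 and 0.23 within the slides and 0.20 without the array labelled SCC13-pUNO untreated 2 (exact permutation test, p = 0.0463). The dimmer SEL1L probe (A_33_P3275968), also well above background on every array, was at -0.16 (95% interval -0.54 to 0.22), and without that array again at -0.16.

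**Figure D2:**
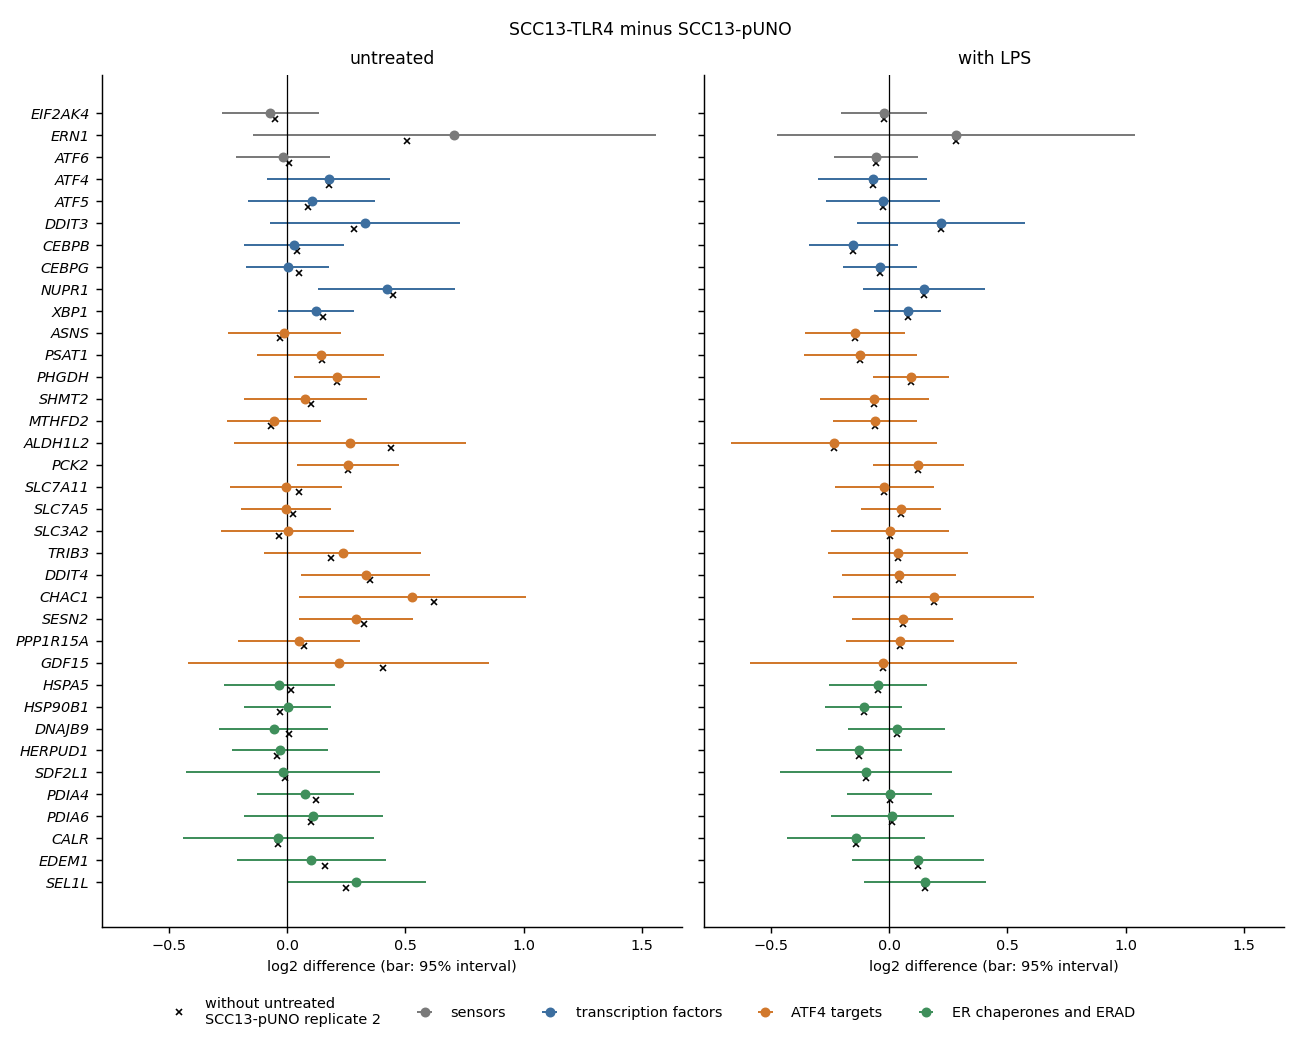
Fitted log2 difference between SCC13-TLR4 and SCC13-pUNO cells (x axis; points with 95% intervals) of the 36 tested genes (y axis), without LPS on the left and with LPS on the right, coloured by class, with crosses for the fit without the array labelled SCC13-pUNO untreated 2. In untreated cells 12 of 16 ATF4 targets lie above 0 and the ER chaperones lie on both sides of it, and with LPS all 36 intervals hold 0. ERN1 is drawn although 4 of its 8 SCC13-pUNO arrays lie at the background.

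LPS left the set without a call in either line. In SCC13-pUNO cells 22 of the 36 genes were higher with LPS and 14 lower, with a median of 0.02, against 0.01 over all probes, of which 54.8% were higher. In SCC13-TLR4 cells 3 were higher and 33 lower with a median of -0.09, against -0.02 over all probes, of which 58.7% were lower. Before adjustment 1 of 36 genes had p under 0.05 in SCC13-pUNO cells, against 3.85% of all probes (3.17% higher and 0.675% lower), and 0 in SCC13-TLR4 cells, against 2.96%. The median of the ATF4 targets was 0.02 in SCC13-pUNO and -0.11 in SCC13-TLR4 cells, and that of the ER genes was -0.02 and -0.10. The line differences and the LPS responses share the same arrays, so the larger line difference of the ATF4 targets in untreated cells and their lower median with LPS in SCC13-TLR4 cells both rest on the 3 untreated SCC13-TLR4 arrays.

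ALDH1L2, a mitochondrial folate enzyme, had the largest LPS response of the set. It was at -3.16, -2.57, -3.66 and -2.94 in untreated SCC13-pUNO cells and at -2.35, -2.71, -2.32 and -2.18 with LPS. In SCC13-TLR4 cells it was at -2.93, -2.27 and -2.91 untreated and at -2.80, -2.73, -2.60 and -2.36 with LPS. Among SCC13-pUNO cells, the LPS-treated arrays lay above the untreated ones except that the array labelled SCC13-pUNO untreated 2 lay above 1 of them. The response was 0.63 in SCC13-pUNO cells (SE 0.20, limma adjusted p = 1) and 0.13 in SCC13-TLR4 cells (SE 0.22). Pooled over lines it was 0.38 (SE 0.15, limma adjusted p = 0.998, exact permutation test p = 0.0426 over 540 splits, smallest possible p 0.00185), with 0.38 on slide 1 and 0.40 on slide 2. Without the array labelled SCC13-pUNO untreated 2 it was 0.81 in SCC13-pUNO cells (adjusted p = 1) and 0.47 pooled (exact permutation test, p = 0.0185), and in SCC13-TLR4 cells 0.14.

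SLC7A5, the light chain of the leucine exchanger LAT1, was at 5.44, 5.57, 5.43 and 5.51 in untreated SCC13-pUNO cells and at 5.42, 5.36, 5.26 and 5.37 with LPS. In SCC13-TLR4 cells it was at 5.44, 5.61 and 5.44 untreated and at 5.23, 5.49, 5.41 and 5.49 with LPS. In SCC13-pUNO cells the lowest untreated array (5.425) lay only just above the highest LPS-treated one (5.422), and in SCC13-TLR4 cells the groups overlapped. The pooled response was -0.11 (SE 0.06, exact permutation test p = 0.0352), -0.08 and -0.13 within the slides, and -0.10 without the array labelled SCC13-pUNO untreated 2 (exact permutation test, p = 0.071).

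DNAJB9 (ERdj4) was at 0.61, 0.93, 0.59 and 0.76 in untreated SCC13-pUNO cells and at 0.58, 0.60, 0.50 and 0.60 with LPS. In SCC13-TLR4 cells it was at 0.62, 0.60 and 0.84 untreated and at 0.54, 0.55, 0.52 and 0.79 with LPS, where replicate 4 was far above the other arrays. The pooled response was -0.12 (exact permutation test, p = 0.0722), with -0.10 and -0.14 within the slides, or -0.09 without the array labelled SCC13-pUNO untreated 2 (exact permutation test, p = 0.13).
PDIA4 was at 3.07, 3.33, 3.25 and 2.93 in untreated SCC13-pUNO cells and at 3.06, 3.09, 2.95 and 3.07 with LPS. In SCC13-TLR4 cells it was at 3.36, 3.07 and 3.05 untreated and at 2.99, 3.09, 3.00 and 3.09 with LPS. Its arrays spread less with LPS (SD 0.06 and 0.05, n = 4 each) than without (SD 0.18, n = 4 and n = 3), a difference of spread that was not tested. The pooled response was -0.10 (exact permutation test, p = 0.0889), with -0.23 on slide 1 and 0.03 on slide 2, or -0.08 without the array labelled SCC13-pUNO untreated 2 (exact permutation test, p = 0.179).
The 6 genes followed throughout responded by less. Pooled over lines, the response was -0.08 for ATF4 (95% interval -0.25 to 0.09), -0.02 for DDIT3 (-0.28 to 0.25), -0.00 for TRIB3 (-0.22 to 0.21), -0.07 for ASNS (-0.22 to 0.09), 0.03 for HSPA5 (-0.12 to 0.18) and -0.06 for XBP1 (-0.16 to 0.05). In the same order, the 6 values were -0.08, -0.04, -0.03, -0.08, 0.06 and -0.04 without the array labelled SCC13-pUNO untreated 2.

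The difference between the lines in their response to LPS called 0 of 36 stress genes and 0% of all probes at an adjusted p under 0.05. It was below 0 for 32 of the 36, that is, the response was lower in SCC13-TLR4 cells, against 61.7% of all probes. The median was -0.14 for the ATF4 targets, but -0.0080 with no slide factor, and -0.09 for the ER genes, but 0.10 on slide 2 alone. Before adjustment 0 of the 36 had p under 0.05, against 2% of all probes. The values ranged from -0.50 for ALDH1L2 (95% interval -1.15 to 0.16) to 0.09 for DNAJB9 (-0.22 to 0.40). ATF4 was at -0.24 (-0.59 to 0.10) and HSPA5 at -0.01 (-0.33 to 0.30). Without the array labelled SCC13-pUNO untreated 2, ALDH1L2 was at -0.67 (limma adjusted p = 1).

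**Figure D3:**
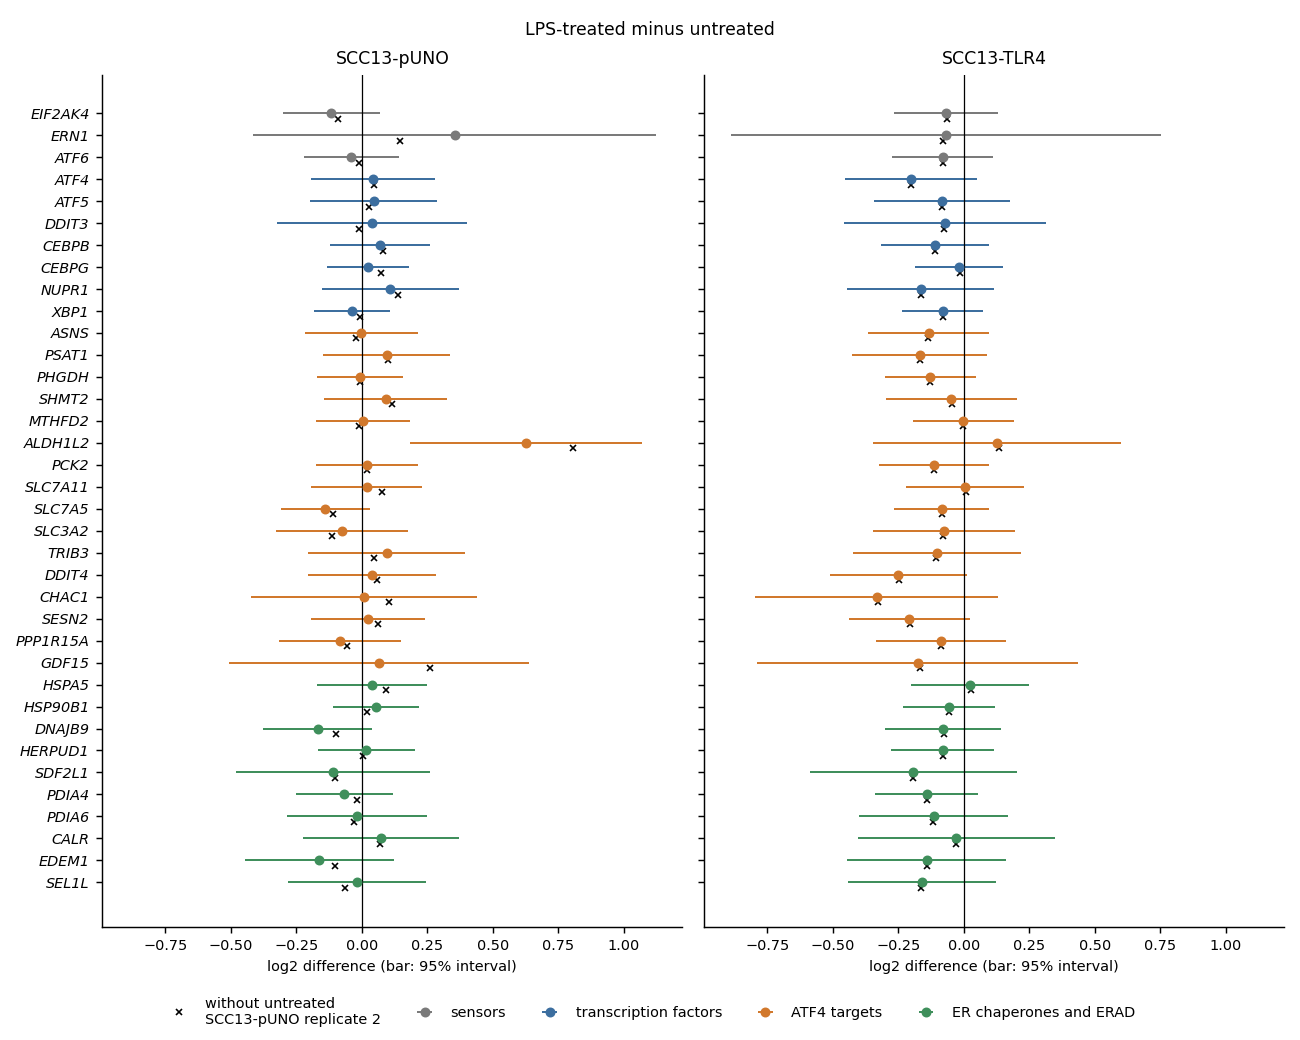
Fitted log2 difference between LPS-treated and untreated cells (x axis; points with 95% intervals) of the 36 tested genes (y axis), in SCC13-pUNO cells on the left and SCC13-TLR4 cells on the right, coloured by class, with crosses for the fit without the array labelled SCC13-pUNO untreated 2. ALDH1L2 in SCC13-pUNO cells, at 0.63, is the only gene whose interval lies off 0, and in SCC13-TLR4 cells 33 of 36 points lie below 0.

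The slide was the one factor on which the set differed past the threshold. Between slide 2 and slide 1, 21 of the 36 genes had an adjusted p under 0.05, 2 higher and 19 lower, against 51.8% of all probes (17.1% higher and 34.7% lower). With replicate number as a block it was 3 of the 36, and the calls among all 22682 probes also fell, from 11756 to 5226. The largest value was that of TRIB3, at -0.63 on the log2 scale, which exceeds its line difference and its LPS response in every comparison. ATF5 was at -0.46, and PSAT1, the higher gene with the larger value, at 0.26. The median was -0.20 for the ATF4 targets and -0.15 for the ER genes, against -0.13 over all probes. Where a gene had several probes these could part by slide. HSP90B1 was at -0.29 with its brightest probe and at 2.97 with A_33_P3408212, and PCK2 at -0.39 and at 1.38 with A_33_P3268532.
The 2 rows of arrays on a slide also stood apart, as slide and row together took 47.3% of the variance of all probes and 46.2% of that of the stress genes. DDIT3 was between -0.58 and -0.50 on the 4 arrays of slide 1, row 1, which are replicate 1 of all 4 groups, and between -1.17 and -1.01 on the 4 arrays of row 2. HSPA5 showed no such gap, with 0.83 to 1.16 in row 1 and 1.03 to 1.22 in row 2. With slide and row together as the factor in place of slide, an alternative chosen after the data had been seen, 0 stress genes were called in any comparison. The NUPR1 line difference was 0.30. Before adjustment 8 of 36 had p under 0.05 in untreated cells and 7 in the pooled line comparison. The share of all probes under this fit is not given, so no excess of stress genes can be read from these counts.

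**Figure D4:**
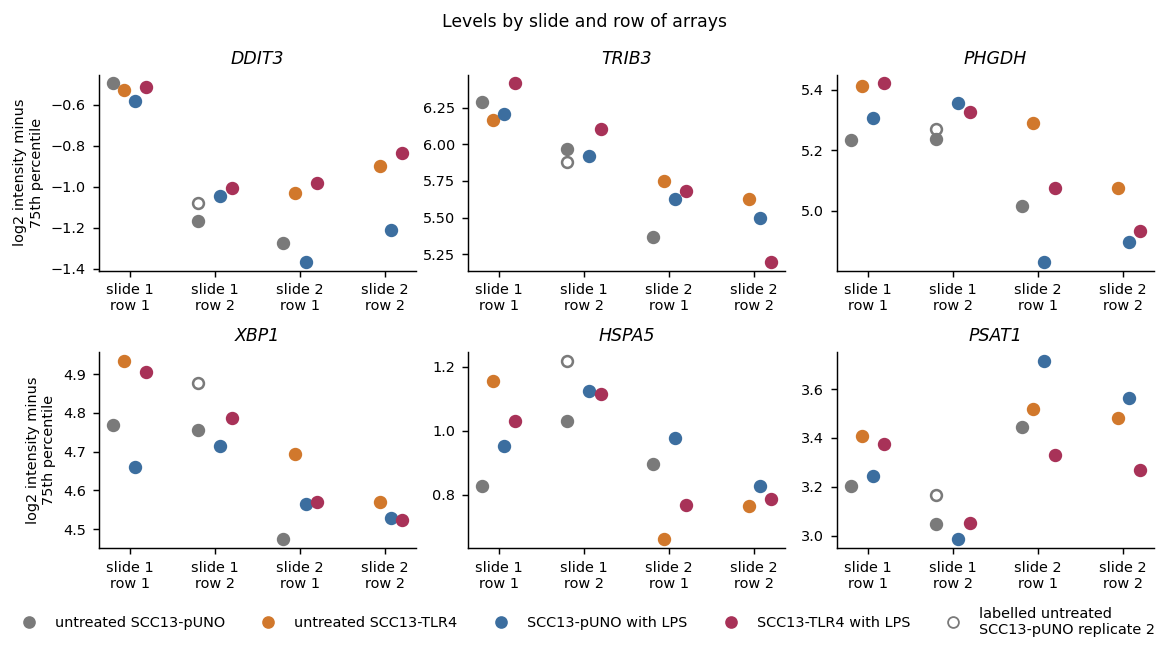
Log2 intensity minus the 75th percentile of the array (y axis) of 6 stress genes by slide and row of arrays (x axis), with colours for the 4 groups and an open circle for the array labelled SCC13-pUNO untreated 2. TRIB3 separates by slide, PHGDH and XBP1 are mostly lower and PSAT1 mostly higher on slide 2, and DDIT3 is highest on slide 1, row 1.

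With group means and slide removed, the residual levels of 35 genes with a value on all 15 arrays were compared in pairs, as a description over arrays that share slides and rows. The mean Pearson's r was 0.06 over 120 pairs of ATF4 targets, 0.04 over 36 pairs of ER genes, 0.19 over 21 pairs of transcription factors and -0.04 over 144 pairs of an ATF4 target with an ER gene, against 0.01 over all pairs of probes. Of all pairs among the 35 genes, the one with the highest r was CHAC1 and SESN2, at 0.90 over 15 arrays. SLC3A2 and PDIA6 followed at 0.85 and CEBPB and HERPUD1 at 0.80. The residuals have 10 degrees of freedom, and how often pairs of any probes reach such an r is not given. ALDH1L2 was at 0.79 with SESN2 and at 0.72 with CHAC1. The lowest values were those of CEBPB and SLC3A2 (-0.89), HERPUD1 and EDEM1 (-0.87) and DDIT3 and GDF15 (-0.85). The row of arrays was not removed. On slide 1 the mean of DDIT3 was -0.53 in row 1 and -1.07 in row 2, and that of GDF15 5.25 and 5.91. On slide 2 the means were -1.16 and -0.98 for DDIT3, and 5.64 and 5.50 for GDF15. The part of the row in these correlations was not tested.

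**Figure D5:**
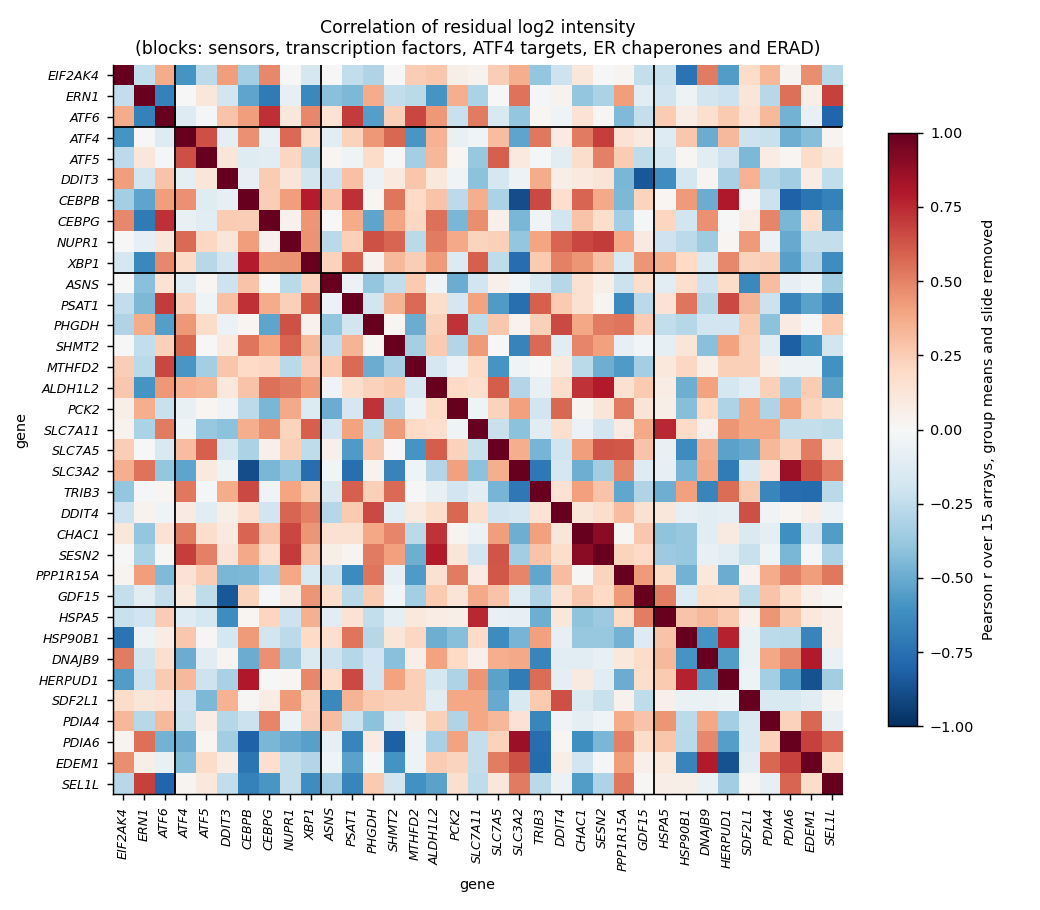
Pearson's r between genes (both axes) over the 15 arrays after group means and slide were removed, from -1 in blue to 1 in red, with lines between sensors, transcription factors, ATF4 targets and ER genes. The highest of all pairs drawn is CHAC1 and SESN2 (0.90), and the blocks as wholes hold both signs, with mean r of 0.06 among ATF4 targets and 0.04 among ER genes.

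Other genes of the pathways were read from further lists. Their pooled line counts stand against 53.7% of all probes higher and 10.5% with an unadjusted p under 0.05. A list of 13 genes held aminoacyl-tRNA synthetases, which charge tRNAs and are ATF4 targets in part, and XPOT, which is not a synthetase. This list had 0 calls in any comparison of lines or LPS, and a pooled line median of 0.06 (11 higher and 2 lower, 0 with an unadjusted p under 0.05). Of 30 further genes of the unfolded protein response 28 were tested, with 0 calls and a pooled line median of 0.02 (16 higher and 12 lower, 2 with an unadjusted p under 0.05). HYOU1, an ER chaperone of the HSP110 family, was at 0.17 (limma adjusted p = 0.433), and SERP1, which protects nascent membrane proteins, at -0.26 (limma adjusted p = 0.425). They were at 0.19 and -0.28 without the array labelled SCC13-pUNO untreated 2.
Of 18 further genes of the integrated stress response 16 were tested, with 0 calls with all arrays and a pooled line median of 0.06 (9 higher and 7 lower, 2 with an unadjusted p under 0.05). ATF3, a stress-induced transcription factor, was at 1.17 pooled (limma adjusted p = 0.396) and at 1.39 without the array labelled SCC13-pUNO untreated 2 (limma adjusted p = 0.0465), the only call of these lists in that fit, in which the pooled line comparison called 49 probes (0.216%). Its 2 other tested probes gave less and were not called. A_33_P3214096 was at 0.33 (limma adjusted p = 0.529) and A_33_P3214105 at 0.31 (limma adjusted p = 0.566), or 0.33 and 0.41 without that array (limma adjusted p = 0.553 and 0.405). PYCR1, of proline synthesis, was at -6.53 on untreated SCC13-TLR4 replicate 1 and between 5.50 and 6.07 on the other 14 arrays, so its line difference of -5.17 in untreated cells rests on 1 spot. The other PYCR1 probe was at 0.04. None of the 36 stress genes was more than 1 log2 unit below the median of the other arrays on that array.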

How the data were processed

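The deposited files are scanner output of SurePrint G3 8x60K arrays (1 dye), and the authors extracted the intensities with Agilent Feature Extraction 10.7.3.1. The deposited processed intensity is background-subtracted and not scaled between arrays. Here log2 of it minus the 75th percentile of the array was used. Spots marked as outliers were left out, spots of a probe were averaged, and probes were named through RefSeq accessions. A gene was read from its brightest tested probe. The model (limma 3.58.1, R 4.3.3) held a mean per group and slide over all 15 arrays, with Benjamini-Hochberg adjustment over 22682 probes. Group means ± SD are not adjusted for slide. The members and lists were chosen with earlier results of these data known. Array by array values are given for ATF4, DDIT3, TRIB3, ASNS, HSPA5 and XBP1 and, as no member was called, the 4 largest absolute t of the pooled line and the pooled LPS comparison (slide, being technical, was not counted). Alternatives changed the scaling, background, filter, slide term, replicate block, probe choice and arrays. The normexp alternative used the median signals of spot and background in place of mean signals. The model was tested on simulated data.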

Additional observations from a re-analysis of the deposited data

Results flagged for a closer look

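Of 42 groups of 4 arrays among the genes described array by array, 2 held an array far from the rest, where about 1 in 20 would by chance. PHGDH was at 5.02 on untreated SCC13-pUNO replicate 4, below the other 3 arrays of its group at 5.23 to 5.27. That array was the only one of its group on slide 2. DNAJB9 was at 0.79 on LPS-treated SCC13-TLR4 replicate 4, above the other 3 at 0.52 to 0.55. That array was the only one of its group in row 2 of slide 2, where the 3 arrays ranged from 0.60 to 0.84.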

How the results depend on the processing

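No stress gene was called in any comparison of lines or LPS under any alternative. Counts of probes called moved more. In untreated cells the line comparison called 0, but 360 on slide 1 alone, 1 on slide 2 alone and 7 with no slide factor and without the array labelled SCC13-pUNO untreated 2, and 0 to 11 with single arrays left out. With LPS it called 0, but 1 with normexp, 1 with no filter, 3 on slide 2 alone, 10 with no slide factor and without that array, 7 with only the groups compared, and 0 to 22 with single arrays left out. Pooled, it called 22, but 5 with no slide factor, 13 with normexp, 0 with quantile normalization, 2 with no filter, 337 on slide 1 alone, 6 on slide 2 alone, 1 with slide and row as the factor (chosen after seeing the data), and 0 to 49 with single arrays left out. The LPS comparisons called 0, but on slide 1 alone 315 in SCC13-TLR4 cells, 288 pooled and 279 for the difference between lines. With single arrays left out they called 0 to 1 in SCC13-pUNO cells, 0 to 4 in SCC13-TLR4 cells, 0 to 2 pooled and 0 to 2 for the difference between lines. With no slide factor, 0 stress genes had an unadjusted p under 0.05 in untreated cells or pooled, against 7 and 8, and without untreated SCC13-TLR4 replicate 2 the 7 became 2. The share of all probes with an unadjusted p under 0.05 is not given for these fits.

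The median line difference of the ATF4 targets in untreated cells (0.18) was 0.072 with no slide factor and 0.078 to 0.21 with single arrays left out, and that of the ER genes was 0.13 on slide 1 alone. For the difference between lines in the LPS response, the ATF4 target median (-0.14) was -0.0080 with no slide factor and -0.036 with no slide factor and without the array labelled SCC13-pUNO untreated 2, and the ER median was 0.10 on slide 2 alone. The slide difference of the ATF4 targets was -0.10 with quantile normalization. With the mean over all probes of a gene, the line difference was -0.043 for SEL1L in untreated cells, -0.20 for PCK2 with LPS and -0.023 for PCK2 pooled. On slide 1 alone SEL1L with LPS was at -0.044. On slide 2 alone the PDIA4 response was 0.076 in SCC13-pUNO cells and 0.031 pooled. The ALDH1L2 response in SCC13-TLR4 cells was -0.012 with quantile normalization, and with single arrays left out it ranged from -0.025 (without untreated SCC13-TLR4 replicate 3) to 0.30 (without untreated SCC13-TLR4 replicate 2). The causes were not tested.

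Replicate numbers were shared between groups. Of 21 same-numbered pairs, 15 had a correlation of residuals over 0.1 (range -0.54 to 0.62). These were the pairs on the same slide, and every pair split between slides had a negative correlation. The correlations thus follow the slide and cannot decide whether shared numbers mark pairs. The numbers were not taken as pairs. With replicate number as a block, the pooled line comparison called 0 probes, the slide difference called 5226 in place of 11756 and 3 stress genes in place of 21, the ATF4 target median was 0.084 for lines in untreated cells and -0.10 for slide, and the ER median for slide was -0.31. Precision is limited by how few arrays there were, and EIF2AK3 and STC2 lay at the background.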
